A study of Rattus norvegicus with 4 samples.

Results

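Collagen chain genes were examined in RNA-seq libraries of the neonatal rat frontal cortex, which the paper calls prefrontal cortex, as those rows with an NCBI Gene ID whose symbol names a collagen chain (Col, type number, a, chain number). The rule used names and no measured value, and it found 27 genes of the 14008 with a Gene ID. Pregnant rats, Wistar in the labels and Wistar Furth in the paper, received 5000 µg/kg bisphenol A (BPA), a plasticizer with estrogen-like activity, each day from gestational day 1 until birth, or the vehicle alone, which the paper describes as ethanol in corn oil. Tissue was taken from the offspring at postnatal day 1 according to the labels, and 1 library was available for each sex and treatment, called the control and BPA libraries of males and females. Pairs of values are given with the male library first. Per the paper, 3 pups of each sex and treatment from independent litters were profiled, but whether each library pooled them is not stated in the sources used here. Within a sex, 1 library was therefore compared with 1, and such a difference is one between libraries, with no replicate check.

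Collagens are secreted proteins whose chains wind around one another into a helix and then assemble outside the cell. Fibrillar collagens form the fibers of connective tissue, type IV forms the sheet of the basement membrane, type VI forms beaded filaments, and the FACIT collagens (fibril-associated collagens with interrupted helices) sit on the surface of fibrils. Multiplexins carry a long interrupted helix and lie in basement membranes, and transmembrane collagens stay anchored in the cell membrane. In the brain, fibrillar collagens are made mainly by fibroblasts of the meninges and around larger vessels, whereas endothelial cells and pericytes lay down type IV. According to the methods, the meninges were removed during dissection.

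The values are FPKM, fragment numbers scaled to transcript length and library depth, which can be compared between chains. The estimated depth lay between 8949000 and 9252000 fragments per library. The cortical neuron marker Neurod6 was abundant in every library, with FPKM of 233.37 to 255.27 in males and 215.55 to 231.04 in females. Over the 10632 genes with a Gene ID and a mean FPKM of at least 1, the median log2 ratio of BPA to control was -0.04 in males and -0.05 in females, with 0.5 added to each FPKM, as in all log2 ratios of single genes below.

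All 27 genes were listed in the male libraries, and 26 in the female libraries, where Col17a1 was not listed. A mean FPKM of at least 1 was reached by 15 genes, which carry the tests below. They belonged to the fibrillar class (8 genes), the FACIT class (2 genes), and the basement membrane, beaded filament, multiplexin and transmembrane classes (1 gene each), with Col26a1 outside these classes. Most of the summed FPKM of the 27 genes came from Col1a2, Col4a1, Col3a1 and Col1a1. Together they held 67.4 and 68.5% of that sum in the controls and 65.4 and 63.5% with BPA. Summed over all 27 genes, collagen FPKM was 244.63 and 291.46 in the controls and 134.44 and 115.46 with BPA, or 55.0% of control in males and 39.6% in females. Chains without a Gene ID, such as Col4a2 and Col6a1, are left out of these shares and sums. With 17 rows of such chains added, the sum was 330.2 and 396.62 in the controls. With BPA that sum was 197.37 and 174.09, or 59.8% of control in males and 43.9% in females. In such bulk samples, fewer cells of a type and less RNA per cell cannot be told apart.

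**Figure D1:**
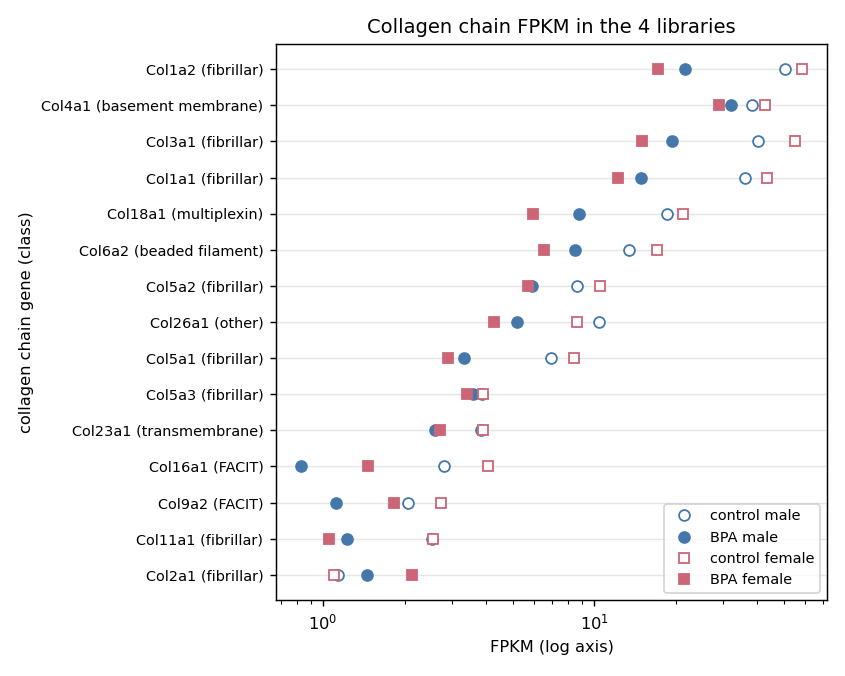
FPKM (horizontal log axis) of the 15 collagen chain genes that reached a mean FPKM of 1, with 1 symbol per library: circles for males, squares for females, open for control and filled for BPA. For 14 genes both filled symbols lie to the left of both open ones, and for Col2a1 both lie to the right.

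Both BPA libraries lay below both control libraries for 20 of the 26 genes listed in all 4 libraries, against 32.5% of all 13033 genes with a Gene ID. The opposite arrangement was seen for 1 gene, Col2a1, against 17.2% of all genes. Among the 15 genes with a mean FPKM of at least 1, the numbers were 14 and 1 (33.4 and 19% of all such genes), and 14 were lower with BPA in males (56.5% of all such genes) and the same 14 in females (58.8%). The median log2 ratio of the 15 genes was -0.81 in males and -0.97 in females. A log2 ratio of -1 or below was reached by 5 of 27 genes in males and by 7 of 26 in females, against 1.15% and 2.18% of all genes with a Gene ID, and 0 genes reached 1 or above (0.341% and 0.251% of all). In males these were Col1a1, Col1a2, Col3a1, Col16a1 and Col18a1, and in females Col5a1 and Col6a2 were added. After the libraries were rescaled by the median ratio of all genes with a Gene ID, 3 genes reached it in males.

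With the sexes as the replicates of each treatment (n = 2 libraries per treatment), limma was fitted to all 13163 rows with a mean FPKM of at least 1. Of the 15 genes tested, 4 were lower with BPA at a Benjamini-Hochberg adjusted p under 0.05, namely Col1a1, Col1a2, Col3a1 and Col18a1, against 0.456% of all rows. None was higher (0.106% of all rows), and 12 were lower and 0 higher at an unadjusted p under 0.05 (12 and 5.31% of all rows). These calls depended on the libraries and on the rows tested. Without the control male library, Col1a1, Col1a2 and Col3a1 passed, whereas without the BPA male, the control female or the BPA female library 0 genes passed of 16, 15 and 17 tested. At an unadjusted p under 0.05, 11, 11 and 12 were lower in these fits, where 1859 of 13196, 1450 of 13087 and 1924 of 13212 rows differed in either direction. Calls were also few over all rows, with 9 lower without the control male, 6 without the BPA male, 3 without the control female and 0 without the BPA female library. With genes that carry a Gene ID alone in the fit, 11 of 15 passed, all lower, against 3.79% of the genes tested (0.696% were higher), and with no minimum FPKM 0 of 26 passed (15 unadjusted), as did 0 of all 16182 rows (2628 unadjusted).

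The fibrillar class was the most abundant and held 3 of the 4 genes called by limma. Its 10 genes summed to 150.84 and 184.99 FPKM in the controls and 72.32 and 60.36 with BPA. Col1a1 and Col1a2 encode the chains that pair in type I collagen, the main fiber of connective tissue. Col1a1 (NCBI Gene 29393) had 35.91 and 43.39 FPKM in the controls and 14.95 and 12.23 with BPA. Its BPA level was 41.6% of control in males (95% interval 38.3 to 45.2%, counting error only) and 28.2% in females (25.8 to 30.8%). The groups did not overlap, and limma gave a log2 ratio of -1.51 (standard error, SE, 0.130, adjusted p = 0.0255). Col1a2 (NCBI Gene 84352) stood at 50.45 and 58.67 FPKM in the controls and 21.71 and 17.15 with BPA. This was 43.0% of control in males (39.7 to 46.6%) and 29.2% in females (26.8 to 31.8%), with a limma log2 ratio of -1.47 (SE 0.129, adjusted p = 0.0255). Both chains thus fell to a like extent, and their ratio, Col1a1 to Col1a2, was 0.712 and 0.740 in the controls and 0.689 and 0.713 with BPA.

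Col3a1 (NCBI Gene 84032), the chain of type III collagen found beside type I in vessel walls and other soft tissue, had 40.16 and 54.98 FPKM in the controls and 19.31 and 15.06 with BPA. The groups did not overlap, and the BPA level was 48.1% of control in males (44.3 to 52.3%) and 27.4% in females (25.05 to 29.9%). The limma log2 ratio was -1.44 (SE 0.175, adjusted p = 0.0430). Relative to Col1a1, Col3a1 stood at 1.12 and 1.27 in the controls and 1.29 and 1.23 with BPA, so the balance of these fibrillar chains differed little between treatments.

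Type V collagen nucleates type I fibrils, and its chains differed from one another. Col5a1 had 6.91 and 8.46 FPKM in the controls and 3.32 and 2.88 with BPA, or 48.0% (41.3 to 55.8%) and 34.0% (29.1 to 39.7%) of control. Its limma log2 ratio of -1.18 (SE 0.161, adjusted p = 0.0501) did not pass the threshold. Col5a2 had 8.65 and 10.5 FPKM in the controls and 5.88 and 5.69 with BPA, or 68.0% (59.0 to 78.4%) and 54.2% (47.0 to 62.2%) of control (limma log2 ratio -0.67, SE 0.131, adjusted p = 0.0948). The ratio of Col5a1 to Col5a2 was 0.799 and 0.806 in the control libraries and 0.565 and 0.506 in the BPA libraries of males and females. In each sex, the counting intervals of both chains did not overlap. Col5a3, the remaining chain, was nearly level across libraries, with 3.87 and 3.89 FPKM in the controls and 3.57 and 3.39 with BPA. Its limma log2 ratio was -0.14 (SE 0.154, adjusted p = 0.678), and both counting intervals included 100% of control.

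Type II and type XI collagens are best known from cartilage. Col11a1 had 2.53 and 2.54 FPKM in the controls and 1.23 and 1.05 with BPA, with a limma log2 ratio of -0.89 (SE 0.235, adjusted p = 0.158). Col2a1, the chain of type II collagen, ran the other way, with 1.13 and 1.1 FPKM in the controls and 1.45 and 2.13 with BPA. The limma log2 ratio of Col2a1 was 0.49 (SE 0.285, adjusted p = 0.417), and it rested on 54 and 51 estimated fragments in the controls and 69 and 100 with BPA. The counting interval of the BPA level spanned 88.8 to 187% of control in males and 138 to 279% in females. Markers of bone and cartilage were scarce, since 7 of 9 were listed, 0 reached a mean FPKM of 1, and their summed FPKM lay between 1.1 and 1.41 in the control libraries and between 0.82 and 1.62 in the BPA libraries. Bglap, Chad, Ibsp, Matn3 and Sp7 were each at the lowest listed value in at least 1 library.

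**Figure D2:**
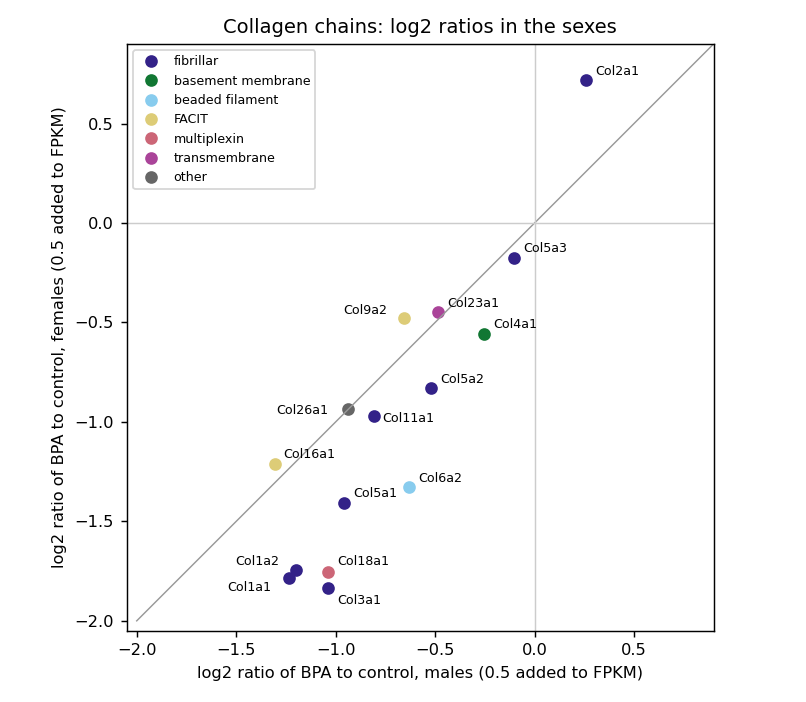
Log2 ratio of BPA to control in males (horizontal) against females (vertical) for the 15 collagen chain genes with a mean FPKM of at least 1, colored by class, with a diagonal line of equal ratios. Col1a1, Col1a2, Col3a1 and Col18a1 lie farthest down, Col4a1 and Col5a3 lie closest to 0, and Col2a1 alone lies in the upper right.

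The basement membrane chain Col4a1 (NCBI Gene 290905) was about as abundant as Col1a1 in the control libraries and kept more of its level. It had 38.25 and 42.59 FPKM in the controls and 31.96 and 28.82 with BPA. The groups did not overlap, and the BPA level was 83.6% of control in males (78.6 to 88.8%) and 67.7% in females (63.6 to 72.0%). The limma log2 ratio was -0.41 (SE 0.0864, adjusted p = 0.118), which did not pass. In each sex the counting interval of Col4a1 lay wholly above those of Col1a1, Col1a2 and Col3a1. Measured within a library, Col4a1 stood to Col1a1 as 1.07 and 0.982 in the controls, against 2.14 and 2.36 with BPA. With 2 libraries per treatment, an exact permutation of libraries cannot reach a p under 0.05, and the ratio is given as a description. Col4a3 and Col4a4 are chains of specialized basement membranes such as that of the kidney. Col4a3 had 0.05 to 0.11 FPKM, and the Col4a4 row with a Gene ID, only 714 bases long, had 0.17 to 0.85 FPKM, each with at most 5 fragments in any library. A longer assembled transcript (a row with only an identifier of the sequencing provider) of Col4a4 (5447 bases) had 1.23 and 1.12 FPKM in the controls and 0.71 and 0.95 with BPA.

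The partner of Col4a1, Col4a2, had no row with a Gene ID but was annotated to an assembled transcript. That transcript had 33.29 and 41.31 FPKM in the controls and 29.14 and 29.39 with BPA, or 87.5 and 71.1% of control. Col4a1 stood to it as 1.15 and 1.03 in the controls and 1.10 and 0.981 with BPA, so the chains that assemble together kept nearly equal levels. In the RefSeq annotation of GRCr8, Col4a1 and Col4a2 start on opposite strands, facing away from each other, with 76 bases between their start sites. These bases (chr16:84885521-84885596, strand of Col4a1) are shown because they lie upstream of both chains, beside a stretch upstream of Col1a2 (chr4:33518307-33518406, plus strand), a chain that fell to a larger extent. Capitals mark matches on either strand to a CCAAT box, to GGGCGG as the core of a GC box, or to TATAAA as a TATA motif.
Col4a1 and Col4a2, shared start region: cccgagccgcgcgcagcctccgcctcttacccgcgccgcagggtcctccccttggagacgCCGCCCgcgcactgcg
Col1a2, upstream stretch: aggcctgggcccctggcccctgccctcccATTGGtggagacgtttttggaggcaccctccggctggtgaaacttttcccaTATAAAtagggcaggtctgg
The region between Col4a1 and Col4a2 held a GC box core on the opposite strand and neither other motif, whereas the Col1a2 stretch held an inverted CCAAT and a TATA motif. The stretches lie at different distances from a start, since the former ends at the Col4a1 start and the latter lies 250 to 151 bases before that of Col1a2. The contrast comes from the stretches chosen, because the longer RefSeq window of Col4a1 also holds CCAAT matches. RefSeq windows of 250 bases before to 50 after the start were held for 22 of the 27 genes, without Col14a1, Col1a1, Col2a1, Col3a1 and Col6a2, and 12 of the 22 (54.5%) had the GC box core, 6 (27.3%) the CCAAT box and 3 (13.6%) the TATA motif. The shares over all 33469 windows of this length were 33.1, 37.5 and 14.2%, and a match is a description of the letters only.

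**Figure D3:**
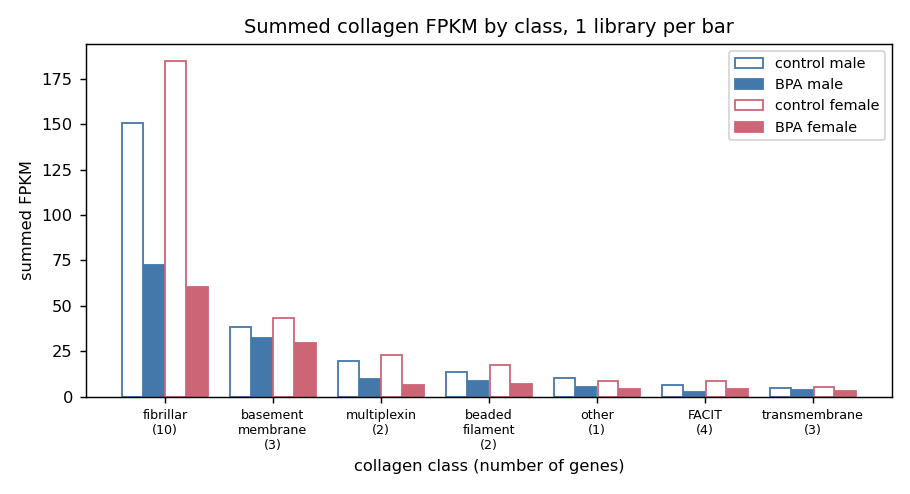
Summed FPKM (vertical axis, from 0) of the collagen classes with at least 1 gene above a mean FPKM of 1, with 1 bar per library: open for control, filled for BPA, blue for males and red for females, and the number of genes summed in brackets. The fibrillar bars stand at 150.84 and 72.32 in males and 184.99 and 60.36 in females (control, then BPA), and the basement membrane bars at 38.51 and 32.24 and at 43.15 and 29.74. Chains without a Gene ID are left out of the bars. With them, the basement membrane sums were 81.26 and 67.46 in males and 95.15 and 65.38 in females. The beaded filament sums were then 46.29 and 28.09 in males and 55.97 and 20.84 in females.

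Among the other classes, the multiplexin Col18a1, whose C-terminal fragment is endostatin, was lower in the BPA libraries to nearly the extent of the type I chains. Col18a1 (NCBI Gene 85251) had 18.6 and 21.31 FPKM in the controls and 8.81 and 5.97 with BPA. It stood at 47.4% of control in males (42.1 to 53.4%) and 28.0% in females (24.4 to 32.1%), with a limma log2 ratio of -1.39 (SE 0.182, adjusted p = 0.0460). With 0.1 in place of 0.5 added to the FPKM, the limma adjusted p of Col18a1 was 0.0516. The other multiplexin, Col15a1, ranged from 1.14 to 1.31 FPKM in the control libraries and from 0.63 to 0.72 in the BPA libraries.

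Col6a2, a chain of the type VI filaments that surround cells, had 13.44 and 17.13 FPKM in the controls and 8.5 and 6.52 with BPA. Its level was 63.2% of control in males (54.4 to 73.8%) and 38.1% in females (32.2 to 44.6%), and limma did not call it (log2 ratio -0.98, SE 0.168, adjusted p = 0.0761). The chains that join it in type VI were found as assembled transcripts, and both were lower in the BPA libraries. Col6a1, summed over 2 transcripts, stood at 66.9% of control in males and 41.8% in females, close to Col6a2, while Col6a3, summed over 3 transcripts, stood at 34.1 and 22.8%. Col6a4 had 0.02 to 0.12 FPKM.

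The FACIT chain Col16a1 had 2.79 and 4.06 FPKM in the controls and 0.83 and 1.47 with BPA, or 29.7% (20.7 to 42.6%) and 36.2% (27.2 to 47.6%) of control. It was lower in both sexes, but its limma log2 ratio of -1.26 had a larger error (SE 0.300, adjusted p = 0.135). Col9a2, a chain of type IX collagen, had 2.05 and 2.73 FPKM in the controls and 1.12 and 1.82 with BPA, with a limma log2 ratio of -0.57 (SE 0.284, adjusted p = 0.357). Of the other FACIT genes, Col14a1 had 0.76 to 1.28 FPKM in the control and 0.42 to 0.44 in the BPA libraries, and Col9a1 had 0.71 to 0.8 and 0.32 to 0.5. Col12a1, a large FACIT chain, had 2 assembled transcripts, of which the first had 1.64 and 1.69 FPKM in the controls and 0.59 and 0.96 with BPA, and the second 0.83 and 2.04 in the controls and 0.58 and the lowest listed value, 0.01, with BPA. Summed over both transcripts, Col12a1 stood at 47.4% of control in males and 25.7% in females. Over all classes, 16 assembled transcripts of chains without a Gene ID were listed in all 4 libraries, of which 13 were lower in both BPA libraries than in both controls and 1 was higher, against 24.5 and 16.9% of all assembled transcripts.

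Col26a1, which belongs to none of these classes, had 10.42 and 8.64 FPKM in the controls and 5.21 and 4.28 with BPA. The reduction was of the same size in both sexes, to 50% (40.1 to 62.0%) and 49.5% (38.7 to 63.0%) of control, and its limma log2 ratio was -0.94 (SE 0.152, adjusted p = 0.0726). With sex added as a term, which pairs the libraries of a sex, limma also called Col26a1 (adjusted p = 0.0473), and 5 genes passed, beside 68 of all 13163 rows lower and 18 higher. The transmembrane chain Col23a1 had 3.81 and 3.88 FPKM in the controls and 2.58 and 2.71 with BPA, with a limma log2 ratio of -0.47 (SE 0.166, adjusted p = 0.237). Col13a1, another transmembrane chain, had 0.98 to 1.27 FPKM in the control and 0.4 to 0.85 in the BPA libraries. The remaining scarce chains were Col27a1 (0.36 to 1.1 FPKM over all libraries), Col7a1 (0.34 to 0.6), Col11a2 (0.36 to 0.46), Col8a1 (0.01 to 0.28) and Col17a1 (0.02 and 0.06 in the male libraries). Col7a1, Col11a2 and Col8a1 had 49 estimated fragments or fewer in any library, and in each sex the counting interval of their ratio included 100% of control, so no difference was detectable at this depth.

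**Figure D4:**
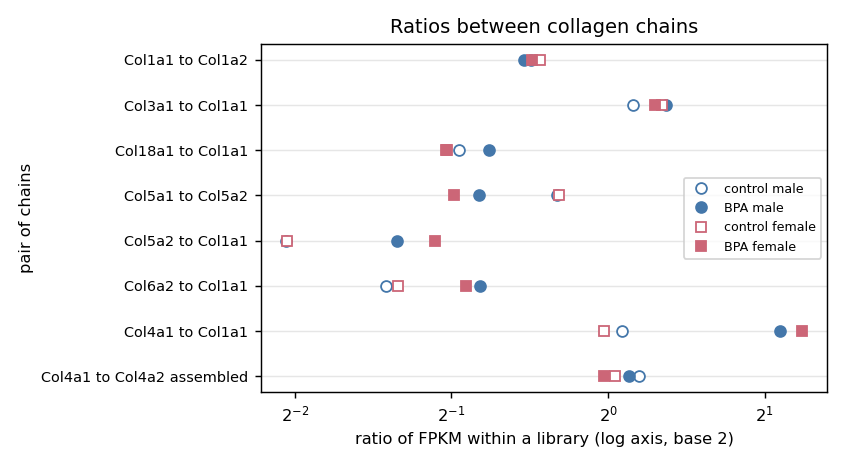
Ratio of the FPKM of one collagen chain to that of another within a library (horizontal log axis, base 2), with circles for males, squares for females, open for control and filled for BPA. Ratios of Col1a1 to Col1a2 and of Col4a1 to the assembled Col4a2 transcript stay close together over the libraries, whereas Col4a1 to Col1a1 is near 1 in the control libraries (1.07 and 0.982) and above 2 with BPA (2.14 and 2.36).

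The sexes were then set side by side. Of the 15 genes, 10 had a lower log2 ratio in females than in males, against 52.9% of all genes with a mean FPKM of at least 1, and the median difference was -0.30 (all genes -0.01). For 7 genes, namely Col1a1, Col1a2, Col3a1, Col4a1, Col5a1, Col6a2 and Col18a1, the female counting interval lay wholly below the male interval, and for 0 genes it lay above, against 3.87 and 2.9% of all genes with a mean FPKM of at least 1. Both ends of the comparison contributed, because the female library was higher than the male library for 13 of 15 genes in the control pair (median log2 ratio of female to male 0.22) and lower for 11 of 15 in the BPA pair (median -0.16). The medians over all such genes were 0.0 and -0.02. With 1 library per sex and treatment, a difference between the sexes cannot be told apart from one between libraries.

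Genes that modify, cut, link or bind collagen were examined from a list of 52 genes, of which 44 were listed and 32 had a mean FPKM of at least 1. In limma, 1 of the 32 was lower and 0 higher at an adjusted p under 0.05 (16 lower and 1 higher unadjusted), against 0.456 and 0.106% of all rows (12 and 5.31% unadjusted). Both BPA libraries lay below both controls for 27 of the 43 genes listed in all 4 libraries, and above them for 2, against 32.5 and 17.2% of all genes. The gene that passed was Pcolce, the enhancer of procollagen C-proteinase, with 7.2 and 8.35 FPKM in the controls and 3.15 and 3.37 with BPA (limma log2 ratio -1.14, SE 0.143, adjusted p = 0.0453). Serpinh1, the collagen chaperone HSP47, had 36.45 and 42.71 FPKM in the controls and 24.26 and 18.11 with BPA, with a limma adjusted p of 0.0742 (log2 ratio -0.90).

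Of 17 genes of hydroxylation and folding tested, limma called 0 (6 lower unadjusted, against 12% of all rows). The 6 were Serpinh1, P3h1 (51.5 and 57.4% of control), P3h4 (57.5 and 67.4%), Fkbp10 (61.1 and 64.4%), Crtap (76.7 and 68.0%) and Plod1 (79.1 and 43.0%). The most abundant, Ppib, a proline isomerase, had 157.08 and 155.92 FPKM in the controls and 167.4 and 150.87 with BPA. P4hb, the beta subunit of prolyl 4-hydroxylase and also a disulfide isomerase, had 97.46 and 98.83 FPKM in the controls and 91.62 and 88.29 with BPA. The lysyl oxidase Lox, which crosslinks fibrils, had 3.28 and 5.03 FPKM in the controls and 2.01 and 1.65 with BPA (limma log2 ratio -0.98, adjusted p = 0.148), and Loxl1 had 6.19 and 7.64 FPKM in the controls and 4.66 and 4.39 with BPA (limma log2 ratio -0.55, adjusted p = 0.162). Of the proteinases, Adamts3, which removes procollagen N-propeptides, was higher in both BPA libraries, with 13.45 and 12.87 FPKM in the controls and 15.5 and 15.13 with BPA. Bmp1, the C-proteinase itself, had 8.93 and 9.85 FPKM in the controls and 6.75 and 8.78 with BPA. The collagen-degrading proteinase Mmp14 had 16.94 and 21.92 FPKM in the controls and 14.74 and 13.1 with BPA, and Mmp2 had 8.42 and 9.53 FPKM in the controls and 6.41 and 5.62 with BPA. Of 5 receptors tested, limma called 0 (2 lower unadjusted, Itgb1 and Ddr2, against 12% of all rows). The integrin subunit Itgb1 stood at 89.8 and 81.2% of control, the collagen receptor kinase Ddr2 at 44.4 and 46.0%, and Adgrg1, a receptor for type III collagen, at 110 and 99.1%.

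Markers of the cell types that make collagen differed beside these results. All 12 meningeal fibroblast markers were lower in both BPA libraries than in both controls (32.5% of all genes), none was at the lowest listed value, and limma called 5 of the 11 tested lower, namely Igf2, Islr, Dcn, Slc6a13 and Ogn (0.456% of all rows). The summed FPKM of the 12 markers was 172.41 and 192.05 in the controls and 71.99 and 50.49 with BPA, or 41.8 and 26.3% of control, beside 41.6 and 28.2% for Col1a1. Igf2 was the largest part of this sum (61.22 of 172.41 FPKM in the control male) and stood at 30.5 and 23.1% of control. The other meningeal markers ranged from 34.5 (Foxc2) to 73.6% (Crabp2) in males and from 12.6 (Foxc2) to 49.7% (Foxc1) in females. The 8 endothelial markers summed to 82.9% of control in males and 60.2% in females, and the 9 mural cell markers (pericytes and smooth muscle) to 83.1 and 73.7%, beside 83.6 and 67.7% for Col4a1. The endothelial sum was carried mainly by Cldn5 (60.49 of 113.38 FPKM in the control male, and 92.2 and 60.4% of control), while the other 7 markers stood at 53.7 to 80.9% in males and 45.8 to 85.6% in females. Rgs5 was the largest single part of the mural sum (26.2 of 61.68 FPKM in the control male) and stood at 74.2 and 67.3% of control. The median log2 ratio of the 9 mural genes was -0.06 and -0.33, and in males Pdgfrb, Kcnj8, Abcc9 and Cspg4 stood at 103 to 122% of control. Of the smooth muscle genes of the list, Acta2 stood at 47.3 and 49.0%, Tagln at 56.2 and 77.6% and Myh11 at 75.8 and 48.4% of control. Of these, limma called 0 of the 8 endothelial and 0 of the 8 mural markers tested (6 and 3 lower at an unadjusted p under 0.05, against 12% of all rows). Of the 7 striatal neuron markers, 5 were higher in both BPA libraries (17.2% of all genes), with a summed FPKM of 51.39 to 55.75 in control and 70.72 to 77.8 with BPA, and limma called 0 (4 higher unadjusted, against 5.31% of all rows). Of 8 cortical neuron markers, 4 were higher and 1 lower in both BPA libraries (17.2 and 32.5% of all genes), and their sum was 112 and 108% of control. For these, limma called Neurod2 higher (0.106% of all rows) and Slc17a7 lower (0.456%), with 4 higher and 1 lower unadjusted (5.31 and 12% of all rows). The part of these cell types in the collagen results was not tested.

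**Figure D5:**
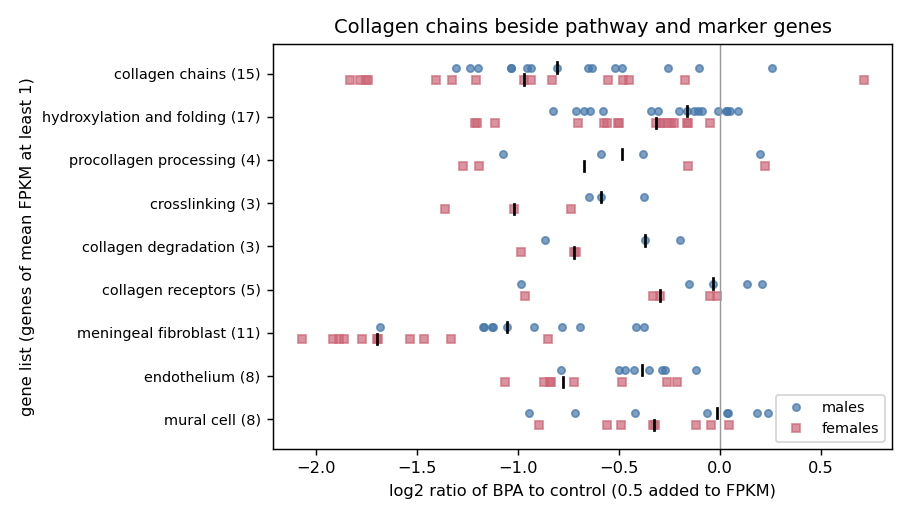
Log2 ratio of BPA to control (horizontal) of the collagen chain genes, of genes that act on collagen and of cell type markers, all with a mean FPKM of at least 1 (number of genes in brackets), with circles for males, squares for females and a black bar at each median. The medians of the collagen chains (-0.81 and -0.97) lie between those of the endothelial (-0.39 and -0.78) and meningeal fibroblast markers (-1.05 and -1.70).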

How the data were processed

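Per the paper's methods, the authors enriched polyadenylated RNA for Illumina sequencing, aligned the reads to the Rnor_6.0 rat genome (rn6 in the submitters' processing notes, which also name HISAT) with Bowtie 2 and estimated expression with RSEM. Versions are not given in the sources used here. The deposited values are FPKM per gene or assembled transcript, 1 column per library, with 0.01 as the lowest value. Log2 ratios used a pseudocount of 0.5. The sexes served as replicates in limma 3.58.1 (R 4.3.3), with treatment as the only term, a trend in the prior variance, a minimum mean FPKM of 1 and Benjamini-Hochberg adjustment over all rows, which leaves 2 residual degrees of freedom. On simulated data of 13163 rows, it called 85 of 100 rows changed by 1 on the log2 scale, 100 of 100 changed by 2 and 5 of 12963 unchanged rows. Rows were drawn with normal noise at the fitted prior variance and no sex effect. Changed rows were picked among those with a mean log2 value above 1. Real rows differ in variance, so these counts check the procedure under its own assumptions and do not give its power here. Depth was recovered from the steps of 1344 to 1410 scarce rows with an effective length of length minus 60 bases, where 81.3 to 83.0% of values came within 0.1 of a whole fragment. Exact binomial (Clopper-Pearson) 95% intervals of BPA to control rest on these fragments and cover counting error only. Assembled transcripts were assigned to a chain by their annotated protein name, and values at 0.01 counted as 0 in sums. Every collagen gene with a mean FPKM of at least 1 is given with its 4 values, and of the other lists the genes called and the 2 most abundant. One gene that this rule names is not reported here, and some were named beyond it. Serpinh1 was chosen after its values were seen, and marker lists are given mainly as counts and sums. The genes and lists were chosen with earlier results of these data known. The tests compare these libraries, and p-values measure only the spread between them. Python 3.11.15 with numpy 2.4.6, pandas 2.3.3, scipy 1.17.1 and matplotlib 3.10.9 was used for the rest.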

Additional observations from a re-analysis of the deposited data

How the results depend on the processing

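No direction was reversed under any alternative run. Of 15 collagen genes, limma called 4 lower as reported, 11 when genes with a Gene ID alone were tested, 0 with no minimum FPKM, and 0 to 3 when 1 library was left out (3 without control male, 0 without each other library), where the lone library of a treatment is assumed to vary like the rest. The other limma alternatives gave 3 (pseudocount 0.1), 5 (pseudocount 1), 4 (rescaled), 4 (assembled transcripts of the same chain added) and 5 (sex as a term, which pairs the libraries of a sex, with 68 rows lower and 18 higher of 13163). Genes at a log2 ratio of -1 or below numbered 3 in males after rescaling and 11 in females with a pseudocount of 0.1. The median log2 ratio in males was -0.98 with a pseudocount of 0.1, -0.66 with 1 and -0.43 with no minimum, and in females -1.20 with 0.1 and -0.75 with no minimum. In an alternative chosen after seeing the data, assembled transcripts of chains without a Gene ID were added to the class sums, whose log2 ratios, taken with no pseudocount, went from -1.24 to -0.58 (males) and from -1.06 to -0.76 (females) for FACIT, and from -0.46 to -0.26 and from -0.73 to -0.48 for transmembrane collagens. Adding only transcripts of the same chain gave -1.04 for transmembrane collagens in females. For Col26a1, the log2 ratio with no pseudocount was -1 (males) and -1.01 (females) as deposited, and -0.95 and -0.95 after rescaling. The causes of these differences were not tested, except that the number of rows tested and of libraries differs by construction. Of the single-gene limma results, 138 kept their side of the threshold, 18 lost the call and 9 gained it. No paired analysis was possible because each sex and treatment has 1 library, beyond the fit with sex as a term. Depth limits the genes under a mean FPKM of 1, several of which rest on fewer than 10 fragments.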

Other observations

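Some collagen chains without a Gene ID were listed as assembled transcripts and were not lower in both BPA libraries. Col25a1, a transmembrane chain made by neurons, had 1 transcript at 0.01 (the lowest listed value) and 1.13 FPKM in the controls and 1.18 and 1.38 with BPA, and another, listed in males alone, at 0.77 in the control and 0.01 with BPA. Col19a1, a FACIT chain, had 0.96 and 0.88 FPKM in the controls and 1 and 0.87 with BPA, and Col9a3, a chain of type IX collagen, had 3.83 and 4.81 FPKM in the controls and 4.23 and 4.67 with BPA. By contrast, Col4a5 had 6.09 and 6.9 FPKM in the controls and 3.99 and 3.85 with BPA and Col8a2, a chain of the hexagonal network type VIII, had 1.38 and 2.38 FPKM in the controls and 0.64 and 0.6 with BPA.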
